A study of Mus musculus with 52 samples.

Results

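Some mouse miRNAs are made from 2 hairpins that sit at different places in the genome. Each hairpin is cut by Drosha and Dicer into a short duplex of a 5p and a 3p arm, and 1 arm is usually retained by an Argonaute protein more than the other. In a duplicated miRNA the retained arm is often identical in both copies, so its reads cannot be given to either hairpin, while the opposite arm has often diverged and marks the hairpin it came from. These distinct arms are read here as tags of each copy in the mouse hippocampus.

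The members are the mature miRNAs whose name carries a copy number 1 or 2 and an arm, with both copies of the same stem and arm listed in the deposited counts. Stems miR-219a and miR-24 and those of the miR-344, miR-466, miR-467 and miR-669 families were left out. This gave 25 pairs, which are 50 of the 1900 mature miRNAs counted. The deposited counts hold 28 copy pairs in all. A pair is called below by its stem and arm, so that miR-181a-3p stands for miR-181a-1-3p and miR-181a-2-3p.

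Small RNA was sequenced from 52 hippocampal libraries of C57B/6JRj mice, 20 weeks of age per the labels, a strain with no transgene named. CA (the cornu ammonis, with the pyramidal cell fields) and DG (the dentate gyrus, with the granule cells) were dissected apart under a microscope. The series asks how housing with environmental enrichment (EE) for 2 or 10 weeks differs from a standard home cage (HC). Home cage groups had 6 libraries each (2wHC_CA, 10wHC_CA, 2wHC_DG and 10wHC_DG). The enriched groups had 7 in 2wEE_CA, 8 in 10wEE_CA, 5 in 2wEE_DG and 8 in 10wEE_DG. The labels do not say that each library came from its own animal, so a p-value here speaks only to variation among samples, some of which may be technical. As these are bulk samples, fewer cells of a type and less RNA per cell cannot be told apart.

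CA libraries held 480792 to 6706855 miRNA counts and DG libraries 1117213 to 3159957. The smallest library, number 3 of 10wEE_CA, stood apart from its group by Dixon's gap test in 9 of the 14 copy ratios described below. Several results that include it are given with and without it, and others only with it. Lists of cell type markers differed between the regions. The summed level of 2 oligodendrocyte miRNAs was 5750 to 12010 CPM (counts per 1000000 miRNA counts of a library) in CA and 1892 to 3499 CPM in DG. For 5 miRNAs of choroid plexus and ependyma the CA range was 7581 to 19090 CPM and the DG range 13550 to 21530 CPM. For 6 neuronal miRNAs the ranges were 17050 to 25810 CPM and 20250 to 33220 CPM. That sum rests largely on miR-128-3p, the arm common to both miR-128 copies, with a mean of 18700 CPM over all libraries. The 4 vascular and mesenchymal miRNAs summed to 17900 to 33600 CPM in CA and 13030 to 63190 CPM in DG, with miR-126a-5p at 0. The lists hold no miRNA that defines CA against DG, so the region labels could not be checked in this way.

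The sequences below are those of the pairs whose copies differed most between the regions or over time, with the seed (bases 2 to 8, which pair with target mRNAs) in capitals. They are RefSeq entries of build GRCm38.p6, written as RNA from 5′ to 3′.

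miR-181a-1-3p: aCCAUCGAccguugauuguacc
miR-181a-2-3p: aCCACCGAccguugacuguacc
miR-181b-1-3p: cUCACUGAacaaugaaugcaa
miR-181b-2-3p: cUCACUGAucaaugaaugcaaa
miR-218-1-3p: aAACAUGGuuccgucaagcacc
miR-218-2-3p: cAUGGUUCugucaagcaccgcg
miR-7a-1-3p: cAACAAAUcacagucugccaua
miR-7a-2-3p: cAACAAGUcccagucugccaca
miR-16-1-3p: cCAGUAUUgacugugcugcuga
miR-16-2-3p: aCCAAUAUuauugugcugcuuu
miR-135a-1-3p: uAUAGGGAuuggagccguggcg
miR-135a-2-3p: uGUAGGGAuggaagccaugaa
miR-138-1-3p: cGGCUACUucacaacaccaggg
miR-138-2-3p: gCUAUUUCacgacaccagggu
let-7f-1-3p: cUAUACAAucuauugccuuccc
let-7f-2-3p: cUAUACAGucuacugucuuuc
miR-129-2-3p: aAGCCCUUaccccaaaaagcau

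Of the 50 members, 47 were matched to a RefSeq mature sequence, and in 22 pairs both copies were matched. Their lengths were 20 to 25 bases and differed by at most 3 within a pair. The copies of a pair were 1 to 9 single-base edits apart (median 5). In 16 pairs the seeds differed, and in 6 they were the same. Counting from 1 at the 5′ end of copy 1, the miR-181a copies differ by U5C and U16C, the first of them inside the seed. The miR-7a copies differ by A7G, A10C and U21C. The closest pair was miR-103-5p, whose copies differ only by G1A. Across pairs, let-7a-1-3p and let-7c-2-3p have the same 22-base sequence, which is printed here because reads of it align to both hairpins.

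let-7a-1-3p: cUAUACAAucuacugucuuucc
let-7c-2-3p: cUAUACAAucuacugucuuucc

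Counts of these 2 members are therefore uncertain. Reads with more than 1 alignment were counted for no miRNA, so the counts of these 2 members may hold only a part of their reads. The total kept for such reads was 59.3 to 71.0% of all counts of a library, totals outside miRNAs included. Whether a read enters that total once or once per alignment was not stated. The arm common to both copies had between 0 counts over all libraries (miR-1a-3p and miR-196a-5p) and 2853444 (miR-128-3p, from a neuronal miRNA that limits excitability). In several miRNAs, among them miR-129, miR-181a and miR-7a, the common arm had fewer counts than the distinct arms. The common arm miR-129-5p had 26 counts over all libraries, against 170255 for the 2 distinct arms together. For miR-181a-5p there were 1937 against 245986, and for miR-7a-5p 153 against 31831. In miR-128 the order was the opposite, with 49800 counts on the distinct arms. Since reads with several alignments were not counted, the counts of a common arm may hold only a part of its reads, and differences in common arms below are those of the counted reads.

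The 25 pairs covered the range from undetected to a mean of 1990 CPM. In 14 pairs both copies had a mean of at least 1 CPM over the 52 libraries. Both copies of miR-196a-3p had 0 counts in every library, where 3 counts, the limit that a count of 0 allows, correspond to 0.447 to 6.24 CPM depending on the library. In 4 more pairs copy 2 had 0 counts in every library, namely miR-19b-2-5p, miR-92a-2-5p, miR-1a-2-5p and miR-3074-2-3p. Copy 1 of these was at 8.27 ± 2.15 CPM for miR-92a-1-5p and 3.89 ± 1.40 CPM for miR-3074-1-3p (SD, n = 52). The other 2 were at 0.125 ± 0.178 CPM for miR-19b-1-5p and 0.0237 ± 0.142 CPM for miR-1a-1-5p. The Mir19b-1 and Mir92-1 hairpins lie in the miR-17-92 cluster on chromosome 14, in exons of Mir17hg, and their copies 2 lie together on chromosome X in the related miR-106a-363 cluster. So the 2 members from the X-linked cluster were at 0 counts. Other arms found only in that cluster ran from 0 CPM for miR-106a-3p to a mean of 2.56 CPM for miR-363-3p. Intervals and limits of this kind cover counting error only, since the counts carry no molecular identifiers.

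In the 6 remaining pairs both copies were counted but at least 1 had a mean under 1 CPM. The let-7c-1-3p copy was at 17.99 ± 4.995 CPM and the let-7c-2-3p copy at 0.324 ± 0.467 CPM (SD, n = 52). The other 5 pairs were at 5 CPM or less in both copies. They were let-7a-3p (0.662 and 4.002 CPM for copies 1 and 2), miR-365-5p (0.191 and 1.57 CPM), miR-194-3p (0.0342 and 1.35 CPM), miR-103-5p (0.157 and 0.948 CPM) and miR-450a-3p (0.0783 and 0.0836 CPM). Copy 2 had the higher mean in those 5 and copy 1 in let-7c-3p. As let-7a-1-3p and let-7c-2-3p share 1 sequence, which copy leads in let-7a-3p and let-7c-3p is known only for the counted reads.

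Balance between the copies is given as the log2 ratio of copy 1 to copy 2 in each library, after adding 0.5 counts scaled to library size. A value of 0 means equal counts and a positive value more of copy 1. No ratio was tested against 0, since 2 different sequences can be captured by a library protocol with different efficiency. Of the 14 pairs at 1 CPM or more, copy 2 was higher in all libraries in 6, copy 1 was higher in all libraries in 4, and the side differed or tied in 4. The widest gap was that of miR-181b-3p, with miR-181b-1-3p at 24.8 ± 12.7 CPM and miR-181b-2-3p at 1.02 ± 0.719 CPM (SD, n = 52).

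**Figure D1:**
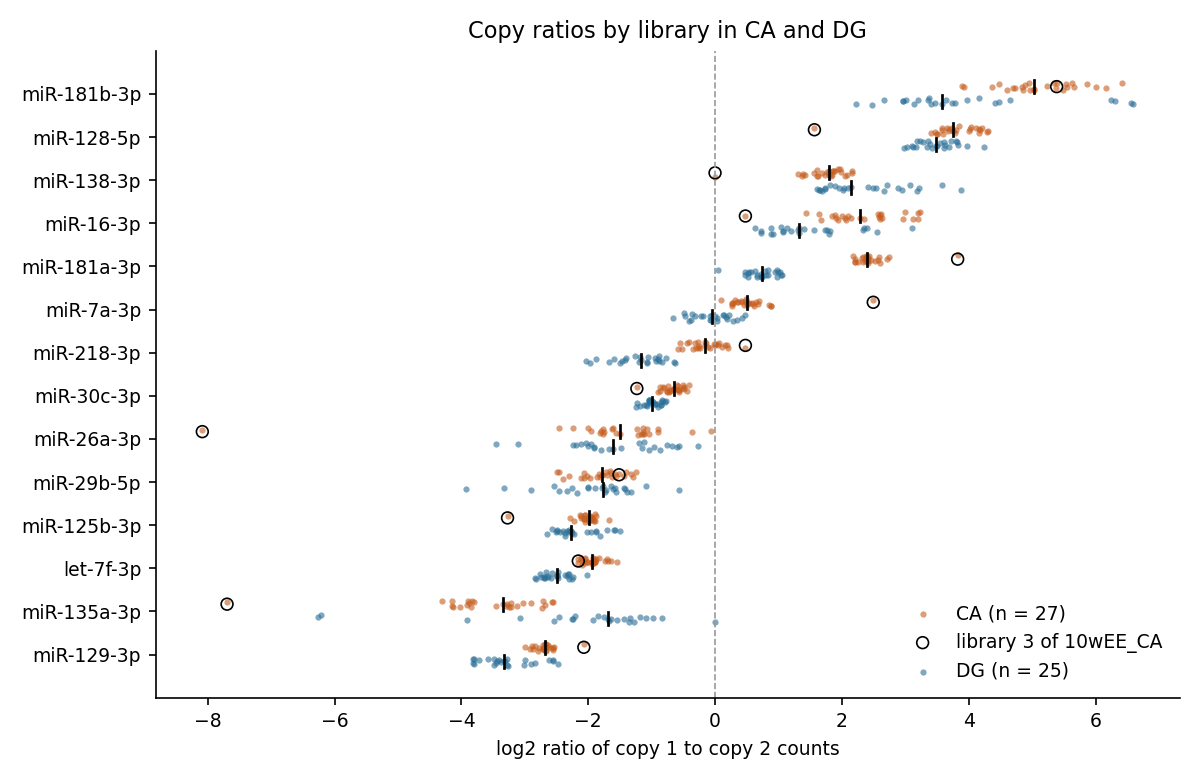
Log2 ratio of copy 1 to copy 2 counts (x axis) for the 14 pairs in which both copies reached 1 CPM (y axis), with 1 point per library, CA in orange and DG in blue, and black bars at the medians. The miR-181a-3p and miR-218-3p points of CA and DG do not overlap, and the circled library 3 of 10wEE_CA lies far from the other CA libraries in several pairs, such as miR-26a-3p at −8.09 and miR-135a-3p at −7.70.

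The 8 pairs whose less abundant copy was highest had different partners in the lead. The miR-125b-3p pair, from a miRNA known to act on dendritic spines, had the most copy 2, with miR-125b-1-3p at 472 ± 91.9 CPM and miR-125b-2-3p at 1990 ± 133 CPM (SD, n = 52). Its log2 ratio was −3.27 at the lowest, −2.05 at the median and −1.50 at the highest. The lowest value was that of library 3 of 10wEE_CA, and the lowest without it was −2.65. The miR-30c-3p copies were at 117 ± 34.2 and 214 ± 83.7 CPM, with log2 ratios of −1.24 to −0.41. For miR-129-3p they were at 115 ± 53.0 and 862 ± 284 CPM, with ratios of −3.82 to −2.07. The let-7f-3p copies were at 36.7 ± 14.5 and 170 ± 62.9 CPM, with ratios of −2.84 to −1.55. In these 4 pairs copy 2 was higher in all 52 libraries.

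Copy 1 led in miR-181a-3p, with 1100 ± 298 CPM against 368 ± 135 CPM for copy 2 (SD, n = 52). It also led in miR-138-3p, at 122 ± 65.04 against 26.9 ± 5.48 CPM, in 51 of 52 libraries. The exception was library 3 of 10wEE_CA, whose 2 copies had equal counts. The miR-7a-3p copies were close, at 113 ± 28.0 and 98.0 ± 36.5 CPM, and copy 1 was higher in 38 of 52 libraries. The miR-218-3p copies were at 27.4 ± 4.93 and 45.5 ± 15.8 CPM, with copy 2 higher in 43 of 52. In miR-7a-3p the side, and in miR-218-3p the size of the lead of copy 2, differed between the regions, as described next.

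Copy ratios differed between DG and CA in most of the pairs tested. Of 14 pairs, 11 passed an adjusted p of 0.05, with the ratio of copy 1 to copy 2 higher in DG in 2 and lower in 9. This was edgeR's quasi-likelihood test with a term for each library, Benjamini-Hochberg adjusted over all 216 ratios tested. Those ratios also hold the pairs of a 5p and a 3p arm of the same hairpin. In the same comparison 52.8% of all ratios were called, and the median size of the log2 difference was 0.59 for the 14 pairs and 0.31 for all. Among the 200 arm pairs alone, 50.5% were called. The differences below are log2 differences of the ratio, DG minus CA, with their standard errors.

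miR-181 is a family best known from lymphocyte development that is also expressed in neurons. Its members miR-181a and miR-181b lie side by side in 2 clusters. The first lies at chr1:137966455-137966541 (Mir181a-1) and chr1:137966639-137966718 (Mir181b-1) on the plus strand of GRCm38, in an intron of the transcript Gm4258 and in an exon, respectively. The second lies at chr2:38852735-38852810 (Mir181a-2) and chr2:38853830-38853918 (Mir181b-2), with no annotated host. The miR-181a-1-3p copy was at 1366 ± 114 CPM in CA (n = 27) and 813 ± 96.7 CPM in DG (SD, n = 25). The lowest, median and highest libraries were at 1123, 1368 and 1567 CPM in CA and at 668, 800 and 1036 CPM in DG. The miR-181a-2-3p copy went the other way, at 253 ± 41.4 CPM in CA and 492.5 ± 76.8 CPM in DG. Its libraries ran from 79.0 over 256 to 304 CPM in CA and from 340 over 503 to 656 CPM in DG. Neither copy overlapped between the regions. The share of all miRNAs without such overlap was not counted, and 77.7% of all miRNAs tested were called between the regions.

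The log2 ratio of miR-181a-3p was 2.17 at the lowest, 2.39 at the median and 3.83 at the highest in CA, and 0.05, 0.74 and 1.05 in DG. Copy 1 made up 84.4 ± 2.22% of the pair's counts in CA (n = 27) and 62.3 ± 3.87% in DG (SD, n = 25). The difference was −1.71 ± 0.068 (adjusted p = 2.4e-30), and −1.68 ± 0.054 without library 3 of 10wEE_CA. CA and DG libraries did not overlap in miR-181a-3p and miR-218-3p, 2 of 14 pairs. Over all 216 ratios, 2.78% did not overlap, and 3.24% without that library, which left the same 2 pairs. Tested singly among 593 miRNAs (edgeR, TMM scaling), miR-181a-1-3p was lower in DG by −0.77 ± 0.045 (adjusted p = 1.47e-21) and miR-181a-2-3p higher by 0.93 ± 0.074 (adjusted p = 2.13e-16) on the log2 scale.

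The miR-181b copies next to them moved alike on the first cluster. miR-181b-1-3p was at 33.1 ± 12.6 CPM in CA and 15.7 ± 2.90 CPM in DG, a log2 difference of −1.03 ± 0.076 (adjusted p = 1.75e-17). Its highest CA value, 93.6 CPM, was that of library 3 of 10wEE_CA. miR-181b-2-3p was at 0.846 ± 0.490 CPM in CA and 1.21 ± 0.875 CPM in DG, too low for the test of single miRNAs. The ratio of the miR-181b-3p pair was lower in DG by −1.54 ± 0.271 (adjusted p = 2.15e-06). The counted reads of the common arms miR-181a-5p and miR-181b-5p, which leave out reads with several alignments, differed by −0.51 ± 0.090 and −0.63 ± 0.036 (adjusted p = 1.19e-06 and 1.04e-21). So the counted reads of the common arms and the distinct arms of the first cluster were lower in DG, and the distinct arm of miR-181a-2 was higher.

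**Figure D2:**
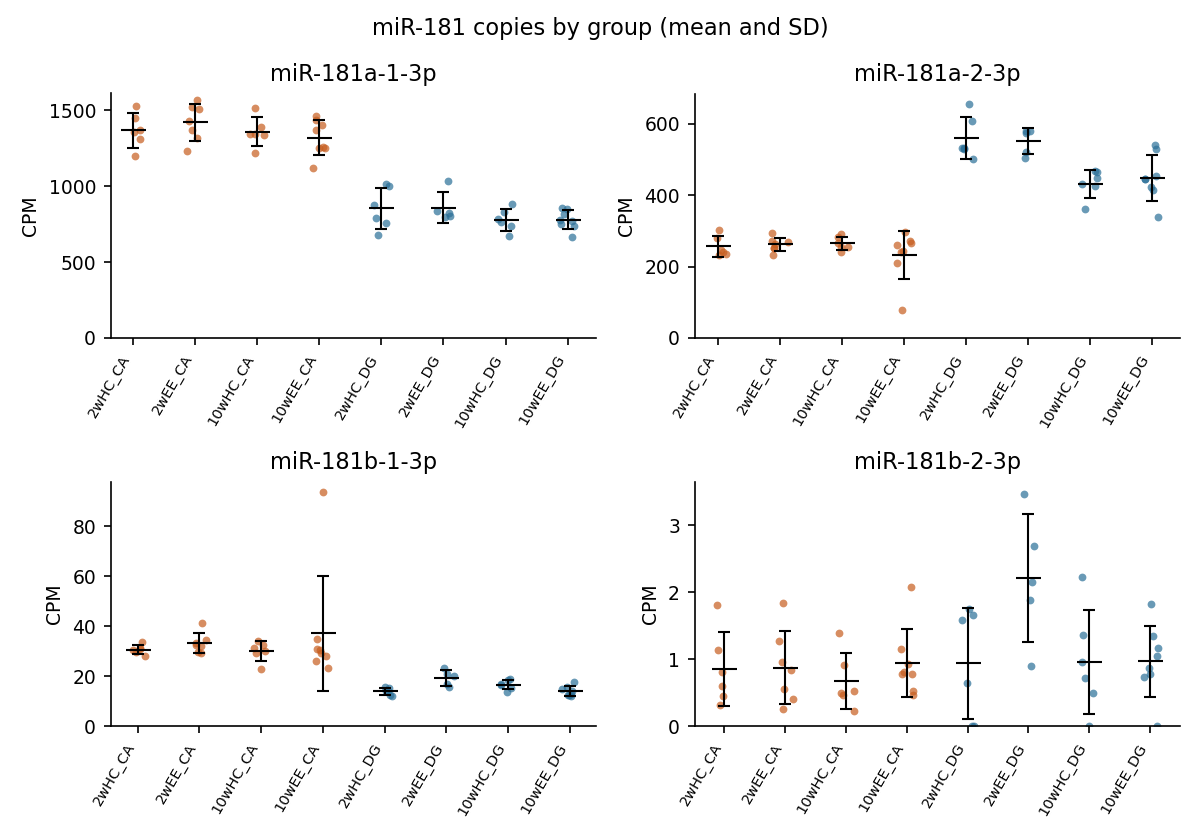
CPM (y axes, from 0) of the 4 distinct miR-181 arms in the 8 groups (x axes), with 1 point per library and the mean and SD in black. Both arms of the first cluster (left) are lower in all DG groups, while miR-181a-2-3p (top right) is at 340 CPM or more in DG and at 304 CPM or less in CA.

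The miR-218 copies lie in introns of the axon guidance genes Slit2 (Mir218-1, chr5:48223942-48224051) and Slit3 (Mir218-2, chr11:35616816-35616925), both on the plus strand of GRCm38. miR-218-1-3p was at 28.6 ± 4.61 CPM in CA against 26.2 ± 5.04 CPM in DG, and miR-218-2-3p at 31.8 ± 5.26 CPM in CA against 60.3 ± 7.75 CPM in DG (SD, n = 27 and 25). The log2 ratio of miR-218-3p was −0.59, −0.15 and 0.48 in CA (lowest, median, highest) and −2.04, −1.16 and −0.64 in DG. So the copies were near equal in CA, and copy 2 exceeded copy 1 in all DG libraries. The difference was −1.01 ± 0.080 (adjusted p = 2.41e-16). The Slit3 copy was higher in DG by 0.85 ± 0.054 (adjusted p = 6.57e-20), and the Slit2 copy lower by −0.16 ± 0.066 (adjusted p = 0.0282). The latter call was lost with DESeq2's size factors (−0.08, adjusted p = 0.236), DESeq2 (0.216), a minimum of 10 CPM (0.126) and the replicate number as a block (0.093). It was also lost when any of 18 libraries was left out, among them library 3 of 10wEE_CA (−0.13, adjusted p = 0.0551). The common arm miR-218-5p was higher in DG by 0.36 ± 0.055 (adjusted p = 6e-08).

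miR-7a, abundant in neurons and endocrine cells and bound by the circular RNA Cdr1as, comes from Mir7-1 in an intron of Hnrnpk (chr13:58392779-58392886, minus strand) and from Mir7-2 (chr7:78888277-78888373, plus strand), which has no annotated host. miR-7a-1-3p was at 98.2 ± 12.8 CPM in CA against 129 ± 31.2 CPM in DG, and miR-7a-2-3p at 66.7 ± 11.2 and 132 ± 20.0 CPM (SD, n = 27 and 25). Both copies were higher in DG, by 0.33 ± 0.055 and 0.93 ± 0.064 (adjusted p = 5.55e-07 and 1.31e-18), and the second by more. The log2 ratio of miR-7a-3p ran from 0.10 over 0.51 to 2.50 in CA and from −0.67 over −0.04 to 0.47 in DG. Copy 1 was higher in all 27 CA libraries and in 11 of 25 DG libraries. The ratio differed by −0.60 ± 0.074 (adjusted p = 6.17e-10), and by −0.57 ± 0.060 without library 3 of 10wEE_CA.

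miR-16, with its neighbour miR-15 a brake on the cell cycle, showed opposite copies. Mir16-1 lies with Mir15a in an exon of Dleu2 (chr14:61631880-61631972, minus strand) and Mir16-2 with Mir15b in an intron of Smc4 (chr3:69009902-69009996, plus strand). miR-16-1-3p was lower in DG, at 16.1 ± 2.56 CPM in CA and 12.5 ± 3.02 CPM in DG (−0.42 ± 0.076, adjusted p = 2.55e-06). miR-16-2-3p was higher in DG, at 3.40 ± 1.76 and 4.55 ± 1.49 CPM (0.45 ± 0.146, adjusted p = 0.00466). The ratio differed by −0.89 ± 0.168 (adjusted p = 7.93e-06), and the libraries of the regions overlapped, at 0.48 to 3.23 in CA and 0.63 to 3.11 in DG. The cluster mates did not split in the same way. miR-15a-5p and miR-15b-5p were both lower in DG, by −0.23 ± 0.044 and −0.28 ± 0.063 (adjusted p = 6.35e-06 and 0.000107), as was the common arm miR-16-5p (−0.46 ± 0.083, adjusted p = 2.28e-06).

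let-7f, of the let-7 family that restrains growth during differentiation, comes from a cluster with let-7a-1 and let-7d in an exon of 6720427I07Rik (Mirlet7f-1, chr13:48537829-48537917, minus strand) and from an intron of Huwe1 next to Mir98 (Mirlet7f-2, chrX:151912346-151912428, plus strand). let-7f-1-3p was at 42.3 ± 18.04 CPM in CA and 30.6 ± 4.45 CPM in DG, lower by −0.44 ± 0.073 (adjusted p = 4.37e-07). let-7f-2-3p was at 164 ± 84.6 and 175 ± 23.8 CPM, a difference of 0.11 ± 0.081 that did not pass (adjusted p = 0.201). Library 3 of 10wEE_CA held 584.5 CPM of it, and without that library let-7f-2-3p was higher in DG by 0.23 ± 0.035 (adjusted p = 4.72e-08). The log2 ratio ran from −2.16 over −1.94 to −1.55 in CA and from −2.84 over −2.50 to −2.02 in DG, so that the regions overlapped a little. It differed by −0.59 ± 0.059 (adjusted p = 1.42e-12). The mates let-7d-5p and let-7d-3p of copy 1 were higher in DG by 0.57 ± 0.063 and 0.54 ± 0.062 (adjusted p = 2.03e-11 and 5.49e-11), opposite to let-7f-1-3p. The mates miR-98-5p and miR-98-3p of copy 2 were higher by 0.42 ± 0.087 and 0.66 ± 0.106 (adjusted p = 2.81e-05 and 2.04e-07).

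The miR-129-3p copies were both lower in DG, the first more so. miR-129 is a neuronal miRNA that acts on excitability. miR-129-1-3p was at 158 ± 33.4 CPM in CA and 67.9 ± 18.3 CPM in DG (−1.26 ± 0.071, adjusted p = 4.22e-22). miR-129-2-3p, from an intron of Mir670hg (chr2:94241364-94241453, minus strand), was at 1014 ± 167 and 697 ± 294 CPM (−0.69 ± 0.082, adjusted p = 1.16e-10). The log2 ratio of miR-129-3p ran from −2.995 over −2.69 to −2.07 in CA and from −3.82 over −3.32 to −2.48 in DG. It differed by −0.56 ± 0.067 (adjusted p = 2.25e-10). The value of −2.07 was that of library 3 of 10wEE_CA, and the highest CA value without it was −2.54.

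In miR-30c-3p both copies were higher in DG. miR-30c-1-3p, from an intron of Nfyc (chr4:120769534-120769622, minus strand), was at 88.5 ± 9.25 CPM in CA and 147 ± 22.6 CPM in DG (0.72 ± 0.060, adjusted p = 2.02e-15). miR-30c-2-3p, from an exon of the long non-coding RNA Gm27028 (chr1:23291701-23291784, plus strand), was at 141 ± 10.9 and 293 ± 48.3 CPM (1.04 ± 0.056, adjusted p = 9.79e-23). The copies share the seed UGGGAGA. The difference was larger for copy 2, so that the ratio was lower by −0.32 ± 0.051 (adjusted p = 2.41e-07). The mate of copy 1, miR-30e-3p, was higher in DG by 0.46 ± 0.040 (adjusted p = 6.91e-15), and miR-30e-5p differed by 0.02 ± 0.037, which did not pass (adjusted p = 0.582).

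miR-128-5p also keeps 1 seed, GGGGCCG, in both copies. Mir128-1 lies in an intron of R3hdm1 (chr1:128202361-128202430, plus strand) and Mir128-2 in an intron of Arpp21 (chr9:112118636-112118711, minus strand). miR-128-1-5p was at 297 ± 59.8 CPM in CA and 248 ± 34.1 CPM in DG (−0.30 ± 0.098, adjusted p = 0.00608). miR-128-2-5p was at 21.2 ± 5.03 and 22.2 ± 3.71 CPM and did not pass (adjusted p = 0.963). The ratio was lower in DG by −0.33 ± 0.084 (adjusted p = 0.000754). With limma on log2 ratios at a prior count of 0.5 this call was just lost (−0.26, adjusted p = 0.0507). It was kept in 6 of 7 alternatives, limma at a prior count of 2 among them.

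Only miR-138-3p and miR-135a-3p had a higher ratio of copy 1 to copy 2 in DG among the 11 called pairs. miR-138, which limits the size of dendritic spines, has a first copy with no annotated host (chr9:122682876-122682974, plus strand) and a second in an exon of C78859 (chr8:94324311-94324381, plus strand). miR-138-1-3p was at 79.3 ± 15.3 CPM in CA and 168 ± 66.8 CPM in DG (1.06 ± 0.122, adjusted p = 4.99e-11). miR-138-2-3p was at 23.7 ± 2.77 and 30.4 ± 5.59 CPM (0.31 ± 0.056, adjusted p = 1.95e-06). The ratio ran from 0.00 over 1.802 to 2.17 in CA and from 1.60 over 2.15 to 3.88 in DG, and differed by 0.63 ± 0.122 (adjusted p = 1.2e-05). The common arm miR-138-5p, with far more counts, differed by −0.14 ± 0.075 and did not pass (adjusted p = 0.0790).

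miR-135a comes from an intron of D030055H07Rik (Mir135a-1, chr9:106154124-106154213, plus strand) and an intron of Rmst, a long non-coding RNA of neural development (Mir135a-2, chr10:92072086-92072185, minus strand). miR-135a-2-3p was lower in DG, at 20.2 ± 4.42 CPM in CA and 9.50 ± 2.71 CPM in DG (−1.143 ± 0.10, adjusted p = 7.27e-15). miR-135a-1-3p was at 1.75 ± 0.919 and 2.57 ± 1.40 CPM, a difference of 0.41 ± 0.216 that did not pass (adjusted p = 0.0798). The ratio was higher in DG by 1.58 ± 0.242 (adjusted p = 1.19e-07). Counts of copy 1 were few, with 341 over all libraries and 0 in 3 of them.

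The 3 pairs that did not pass between the regions were miR-125b-3p (−0.11 ± 0.072, adjusted p = 0.204), miR-26a-3p (−0.10 ± 0.192, adjusted p = 0.682) and miR-29b-5p (−0.03 ± 0.132, adjusted p = 0.874). Without library 3 of 10wEE_CA, miR-125b-3p passed, at −0.14 ± 0.060 (adjusted p = 0.0448), and 12 of 14 pairs were called. All ratios called were then 123 in place of 114. miR-26a represses differentiation and growth genes, and its copies lie in Ctdspl and Ctdsp2, a pair of related phosphatase genes. miR-29b is known for repressing collagens and apoptosis genes in neurons, and its copies are paired with miR-29a on chromosome 6 and miR-29c on chromosome 1.

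**Figure D3:**
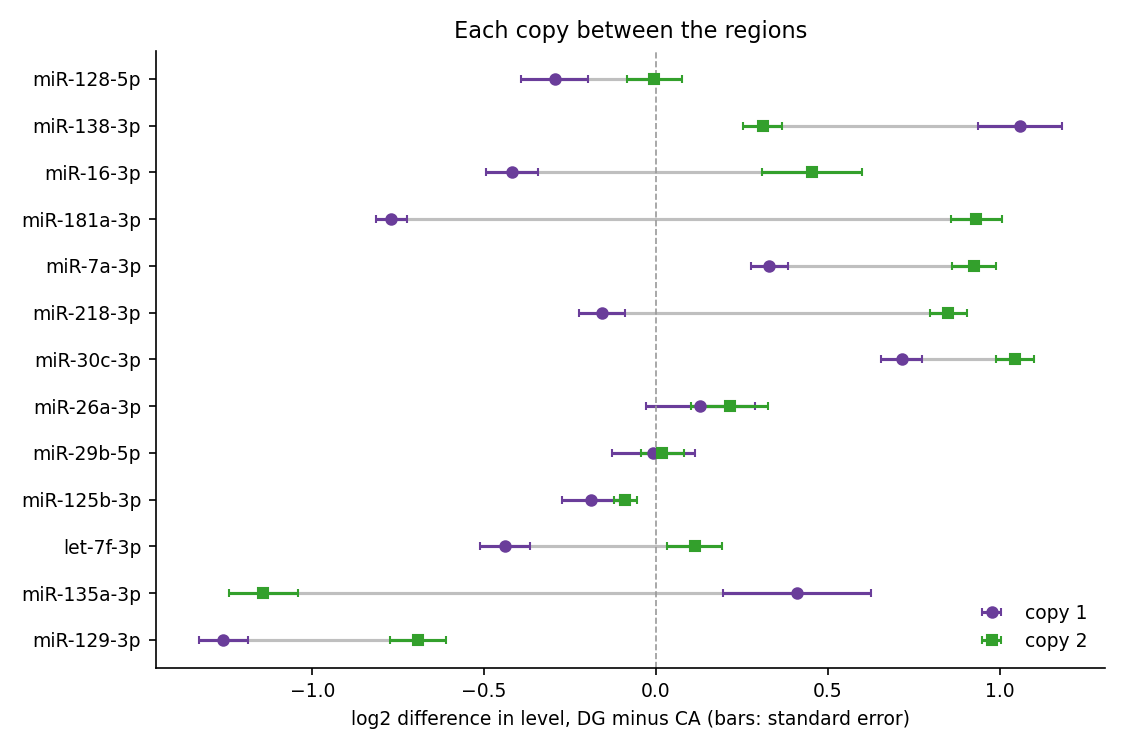
Log2 difference in level between DG and CA (x axis, DG minus CA, bars are standard errors) of copy 1 (circles) and copy 2 (squares) for the 13 pairs in which both copies were tested singly. The copies lie on opposite sides of 0 in miR-181a-3p, miR-16-3p, miR-218-3p, let-7f-3p and miR-135a-3p, both within 0.02 of 0 in miR-29b-5p, and far apart on the same side in miR-138-3p and miR-7a-3p.

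Tested singly, 31 of the 50 members had enough counts, and 22 of them differed between DG and CA, 10 higher in DG and 12 lower. Among all miRNAs tested 77.7% were called (461 of 593). The median size of the log2 difference was 0.41 for the members and 0.48 for all. Whether the share of the members differs from that of all miRNAs was not tested. With DESeq2's size factors in place of TMM the split was 12 higher and 9 lower. Both copies passed in opposite directions in 3 pairs, miR-181a-3p, miR-16-3p and miR-218-3p, the last through the unstable call of miR-218-1-3p. Without library 3 of 10wEE_CA, miR-26a-2-3p was also higher in DG, at 0.29 ± 0.091 (adjusted p = 0.00352) in place of 0.21 ± 0.111 (adjusted p = 0.0761). Outside the 14 pairs, let-7a-2-3p was lower in DG by −0.99 ± 0.160 (adjusted p = 2.84e-07), and its cluster mate miR-100-5p by −0.96 ± 0.059 (adjusted p = 1.77e-20). let-7c-1-3p was higher by 0.29 ± 0.087 (adjusted p = 0.00268), and its mate miR-99a-5p lower by −0.10 ± 0.045 (adjusted p = 0.0368). The part of the marker lists above in these differences was not tested.

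The home cage groups housed for 10 and for 2 weeks, of the same labelled age, differed in 2 copy ratios in DG, of 14 tested, against 10.2% of all 215 ratios. The miR-7a-3p ratio was higher at 10 weeks by 0.59 ± 0.130 (adjusted p = 0.00199). In 2wHC_DG it was −0.67 at the lowest, −0.43 at the median and −0.22 at the highest, and in 10wHC_DG −0.08, 0.18 and 0.43. The 2 groups did not overlap in this pair, which was 1 of 14, while 5.58% of all ratios did not overlap. The levels show that copy 1 moved. miR-7a-1-3p was at 108 ± 17.8 CPM in 2wHC_DG and 158 ± 25.8 CPM in 10wHC_DG (SD, n = 6 each), and rose by 0.48 ± 0.130 (adjusted p = 0.0163). miR-7a-2-3p was at 145 ± 13.1 and 140 ± 12.5 CPM. Without library 4 of 10wHC_DG the rise of miR-7a-1-3p was 0.39 (adjusted p = 0.0521), and the ratio kept its call without each library in turn.

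The miR-129-3p ratio was lower at 10 weeks in DG by −0.63 ± 0.171 (adjusted p = 0.0142). It ran from −3.41 over −2.93 to −2.55 in 2wHC_DG and from −3.82 over −3.65 to −3.32 in 10wHC_DG, so that the highest values of the later group reached the lowest of the earlier one. Here both copies rose. miR-129-1-3p was at 50.5 ± 12.7 CPM in 2wHC_DG and 80.3 ± 22.6 CPM in 10wHC_DG (0.59 ± 0.162, adjusted p = 0.0169), and miR-129-2-3p at 401 ± 158 and 967 ± 189 CPM (1.20 ± 0.209, adjusted p = 0.000272). For copy 2 the libraries ran from 260 to 640 CPM at 2 weeks and from 702 to 1219 CPM at 10 weeks. The rise of copy 1 did not pass without library 4 of 10wHC_DG (adjusted p = 0.0592) or without library 5 (adjusted p = 0.0518).

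Over the 29 members tested singly in DG, 5 passed in this contrast, 4 higher and 1 lower at 10 weeks, against 16% of all miRNAs. The other 2 were miR-181a-2-3p, which fell from 561 ± 59.0 to 433 ± 39.2 CPM (−0.45 ± 0.116, adjusted p = 0.0127), and let-7f-2-3p, which rose by 0.29 ± 0.087 (adjusted p = 0.0286). The let-7f-2-3p call was lost when any of 4 libraries was left out, libraries 1 and 4 of 2wHC_DG (adjusted p = 0.0753 and 0.0682) and libraries 4 and 6 of 10wHC_DG (adjusted p = 0.0522 and 0.0550). Without library 4 of 10wHC_DG, 2 members passed in place of 5, with the share of all miRNAs in that run not given here. Median miRNA counts were 1438109.5 in 2wHC_DG and 2046240 in 10wHC_DG. The total for reads aligned to several places had medians of 64.4% and 66.9% of all counts. The total for reads outside any annotated miRNA, as a share of all counts, separated the times completely. It was 3.82 to 4.45% in the 2-week and 4.88 to 6.34% in the 10-week DG libraries, home cage and enriched together. In CA it was 3.38 to 3.96% and 4.29 to 4.78%, so that it moved with every comparison of the times. The summed oligodendrocyte miRNAs had medians of 2268 and 2375 CPM and the neuronal ones 27750 and 26990 CPM. The part of these in the time differences was not tested.

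In CA, 0 of 13 ratios passed between 10 and 2 weeks of home cage, and 0% of all 210 ratios did. Without library 3 of 10wEE_CA, 12 ratios and 12 miRNAs were called in that comparison, with 0 members among them. At an unadjusted p under 0.05 with all libraries there were 2 member pairs, and 21 of all 210 ratios. miR-7a-3p differed by 0.12 ± 0.164 and miR-129-3p by −0.07 ± 0.104 there. Of 31 members tested singly 0 passed, and 0% of all 581 miRNAs. By edgeR, 5 members and 35 of all miRNAs had an unadjusted p under 0.05. The difference of the time effect between DG and CA, a contrast added after the result in DG had been seen, did not pass for either ratio. It was 0.48 ± 0.214 for miR-7a-3p (adjusted p = 0.179) and −0.55 ± 0.195 for miR-129-3p (adjusted p = 0.0623), with 7.87% of all ratios called and 0 of 14 pairs. With library 3 of 10wEE_CA, library 2 or 3 of 2wHC_DG or library 5 of 10wHC_DG left out, 1 pair was called, miR-129-3p each time (−0.54, adjusted p = 0.0323, without library 3 of 10wEE_CA). Without library 3 of 10wEE_CA, 27 of all ratios were called in place of 17. For the other libraries left out that count is not given here. For miR-129-2-3p itself the difference of the time effect passed, at 0.89 ± 0.237 (adjusted p = 0.0274), with 2.19% of all miRNAs called. This call was lost without library 5 of 2wHC_CA (adjusted p = 0.0519) and without library 1 or 6 of 2wHC_DG (adjusted p = 0.0615 and 0.0702). The count of members called was 3 without library 3 of 10wEE_CA and 2 without library 2 of 10wHC_DG. Without library 3 of 10wEE_CA, 42 of all miRNAs were called in place of 13. The count over all miRNAs without library 2 of 10wHC_DG is not given here.

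The enriched groups, also compared between the times after the home cage result had been seen, had 0 called pairs in DG of 14, against 4.19% of all ratios. At an unadjusted p under 0.05 by edgeR there were 5 member pairs of 14 and 43 of all 215 ratios. limma called 1 pair, miR-129-3p (−0.54, adjusted p = 0.0496), and 12 of all ratios. Without library 1 or 3 of 2wEE_DG 3 pairs were called, and 1 without library 2, 3 or 8 of 10wEE_DG. The share of all ratios called in these runs is not given here, so a shift of the whole table cannot be told apart. The miR-7a-3p ratio differed there by 0.34 ± 0.130 (adjusted p = 0.112). In 2wEE_DG its 5 libraries were at −0.41, 0.02, −0.04, −0.32 and −0.18, and in 10wEE_DG the lowest, median and highest were −0.09, 0.15 and 0.47. For miR-129-3p the difference was −0.52 ± 0.166 (adjusted p = 0.0696), from −3.28, −2.90, −3.31, −2.48 and −2.63 in 2wEE_DG to −3.81, −3.47 and −3.001 in 10wEE_DG. Values of the 2 times overlapped in both pairs. Among members tested singly, 5 passed in DG against 9.9% of all miRNAs, among them miR-129-2-3p at 0.79 ± 0.208 (adjusted p = 0.016) and miR-7a-1-3p at 0.43 ± 0.129 (adjusted p = 0.0319). The other 3 were lower at 10 weeks, miR-125b-1-3p, miR-128-1-5p and miR-181b-1-3p, at −0.50, −0.34 and −0.47. The count of 5 fell to 3 without library 1 of 10wEE_DG, to 2 without library 2 of 2wEE_DG or library 4, 5 or 6 of 10wEE_DG, and to 0 without library 4 or 5 of 2wEE_DG. The share of all miRNAs called in these runs is not given here either. In CA, 0 of 13 pairs passed against 1.43% of all ratios, with 3 pairs and 31 of all ratios at an unadjusted p under 0.05 by edgeR. There 2 members passed singly against 2.58% of all miRNAs, miR-129-1-3p at 0.50 ± 0.114 (adjusted p = 0.0198) and miR-129-2-3p at 0.44 ± 0.085 (adjusted p = 0.0119). So miR-129-2-3p was higher at 10 weeks in the home cage DG, enriched DG and enriched CA comparisons. In home cage CA it was at 917 ± 88.1 CPM at 2 weeks and 1092 ± 79.6 CPM at 10 weeks, which did not pass. Without library 3 of 10wEE_CA, 19 ratios were called between the times in enriched CA, with 0 member pairs, and 55 miRNAs, with 2 members.

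**Figure D4:**
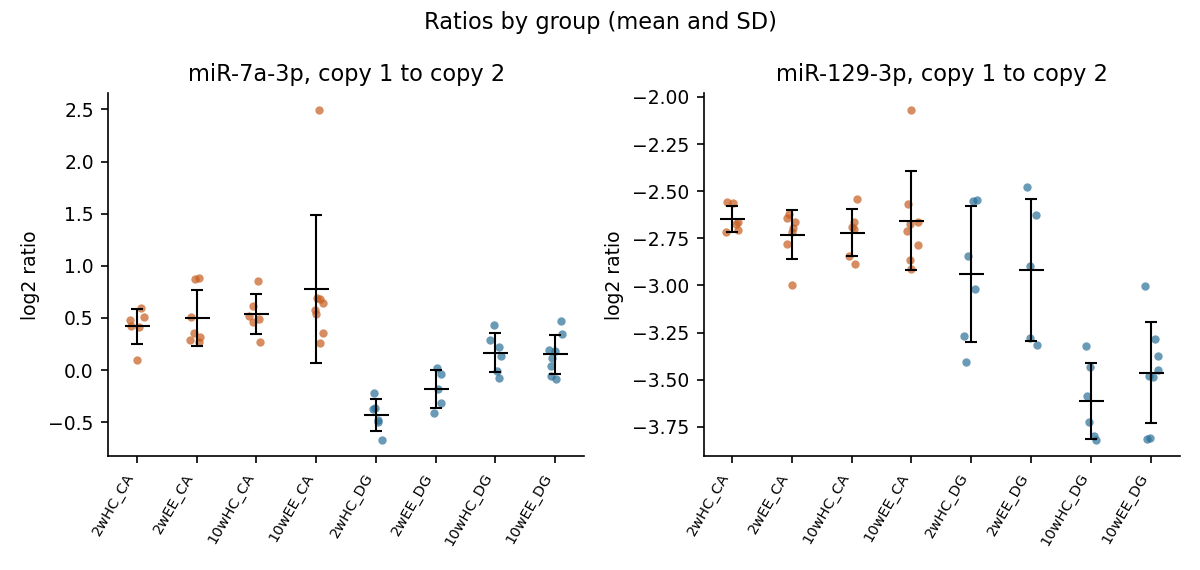
Log2 ratio of copy 1 to copy 2 (y axes) of miR-7a-3p (left) and miR-129-3p (right) in the 8 groups (x axes), with 1 point per library, CA in orange, DG in blue, and the mean and SD in black. In the home cage DG groups the miR-7a-3p medians are −0.43 at 2 weeks and 0.18 at 10 weeks, and those of miR-129-3p are −2.93 and −3.65.

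Enrichment against home cage, the question of the series, gave 0 called copy ratios in each of 4 contrasts. These tested 13 pairs in CA and 14 in DG at 2 and at 10 weeks, and 0% of all ratios were called in each. At an unadjusted p under 0.05 there was 1 member pair in CA at 2 weeks and 0 in the other 3 contrasts, by edgeR. Over all ratios there were 2 and 4 in CA, and 7 and 8 in DG, at 2 and 10 weeks. In CA, leaving out library 3 of 10wEE_CA gave 0 of 13 called pairs and 0 called ratios at either time. With all libraries, limma on log2 ratios called 0 as well. Differences of the ratio, enriched minus home cage, lay between −0.36 and 0.45 in CA at 2 weeks, −0.52 and 0.21 in CA at 10 weeks, −0.66 and 0.32 in DG at 2 weeks, and −0.43 and 0.13 in DG at 10 weeks. Their median standard errors were 0.15, 0.15, 0.20 and 0.16, so that small differences were not detectable with these libraries. The −0.52 in CA at 10 weeks was that of miR-26a-3p, whose ratio was −8.09 in library 3 of 10wEE_CA. Its difference without that library is not given here.

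The pairs with the smallest p in each contrast were given by rule. In CA at 2 weeks they were miR-29b-5p (0.45 ± 0.184) and miR-16-3p (0.37 ± 0.287). At 10 weeks in CA they were miR-218-3p (0.21 ± 0.125) and miR-138-3p (−0.24 ± 0.147). With each CA library left out in turn, the miR-138-3p difference ran from −0.295 to −0.186. In DG they were miR-7a-3p (0.24 ± 0.140) and let-7f-3p (−0.20 ± 0.159) at 2 weeks, and miR-218-3p (−0.32 ± 0.181) and miR-16-3p (−0.43 ± 0.311) at 10 weeks. None of these 8 differences passed, with adjusted p-values of 0.917 or more in edgeR. The pair with the strongest regional difference, miR-181a-3p, had medians of 2.40 in 2wHC_CA, 2.41 in 2wEE_CA, 2.39 in 10wHC_CA and 2.42 in 10wEE_CA. Its medians in DG were 0.64 in 2wHC_DG, 0.53 in 2wEE_DG, 0.83 in 10wHC_DG and 0.80 in 10wEE_DG.

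**Figure D5:**
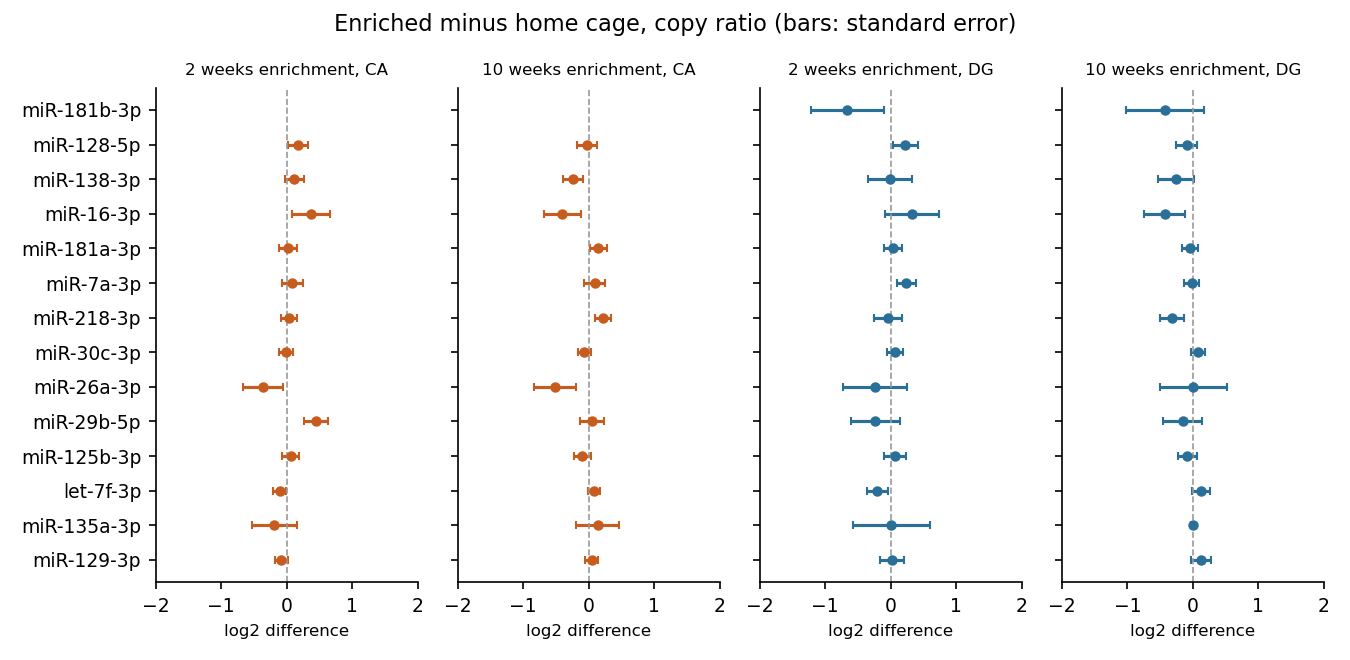
Log2 difference of the copy ratio, enriched minus home cage (x axes, bars are standard errors), for the pairs tested (y axis) in CA (orange) and DG (blue) at 2 and 10 weeks. Differences lie between −0.66 and 0.45, none passed the adjusted threshold, and miR-181b-3p was too low for the test in CA. The standard error of miR-135a-3p in DG was 0.593 at 2 weeks and 0.027 at 10 weeks. The latter is not reliable, since it was derived from a difference near 0.

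Levels of single members under enrichment gave the same count, 0 called of 31 in CA and of 29 in DG at either time. Of all miRNAs 0% were called in CA at 2 weeks and 0% at 10 weeks, 0.571% in DG at 2 weeks and 0.381% in DG at 10 weeks. Without library 3 of 10wEE_CA, 9 miRNAs were called in CA at 2 weeks and 3 at 10 weeks, with 0 members among them. With all libraries, 1 member in CA at each time, 2 in DG at 2 weeks and 1 in DG at 10 weeks had an unadjusted p under 0.05 by edgeR. Over all miRNAs there were 35 and 30 in CA at 2 and 10 weeks, and 29 in DG at each time. DESeq2 called 0 members in these 4 contrasts. Without library 1 of 2wEE_DG, 1 member passed in DG at 2 weeks, and the share of all miRNAs in that run is not given here. The difference of the enrichment effect on copy ratios between 10 and 2 weeks was called in 0 of 13 pairs in CA and 0 of 14 in DG, and between DG and CA in 0 of 14 at either time. In each of these 4 contrasts 0% of all ratios were called. At an unadjusted p under 0.05 there was 1 pair between DG and CA at 10 weeks and 0 in the other 3. Over all ratios there were 8 between DG and CA at 10 weeks and 3 to 9 in the other 3.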

How the data were processed

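Mature miRNA read counts of 52 libraries were used as deposited. The deposited counts were made with CASAVA 1.8.2, cutadapt, STAR and HTSeq on mm10, per the submitters' processing notes. The annotation, the strand setting and other versions were not given in the sources used here. In all files 5 closing totals of reads given to no miRNA were left out. CPM used the sum over all 1900 miRNAs.

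Ratios were tested with edgeR 4.0.16 (R 4.3.3), as a term for each library plus the numerator by group. The table held all copy pairs and all pairs of a 5p and a 3p arm with both miRNAs at a mean of 1 CPM or more in the libraries fitted. Single miRNAs were tested by edgeR's quasi-likelihood test with TMM scaling and filterByExpr. Tests were two-sided, and p-values were Benjamini-Hochberg adjusted over each whole table (threshold 0.05). CA contrasts used 27 libraries, DG contrasts 25 and regional contrasts all 52. Standard errors are the difference divided by the root of F. The procedure was tested on simulated data.

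Alternatives were limma 3.58.1 on log2 ratios (prior counts 0.5 and 2), DESeq2 1.42.0 and its size factors, minimum CPM, the replicate number as a block, home cage or enriched groups alone, and leaving out each library. Named in full were pairs called in a contrast, the 8 pairs with the most abundant lesser copy, and the 2 smallest p-values of each enrichment contrast. Cluster mates lie within 10 kb on the same strand. The members and lists were chosen with earlier results of these data known. The contrasts between times in the enriched groups, and between regions for the home cage time effect, were added after the data had been seen. Counts range from 480792 to 6706855 per library.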

Additional observations from a re-analysis of the deposited data

Results flagged for a closer look

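In 17 of 112 sets (14 pairs in 8 groups), the log2 copy ratio of 1 library lay apart from its group by Dixon's 95% gap test, which chance does in about 1 of 20. Of these, 9 were values of library 3 of 10wEE_CA, the library with the fewest counts. Its ratios were −3.27 for miR-125b-3p, 1.57 for miR-128-5p, −2.07 for miR-129-3p, −7.70 for miR-135a-3p and 0.0 for miR-138-3p. They were 3.83 for miR-181a-3p, −8.09 for miR-26a-3p, −1.23 for miR-30c-3p and 2.50 for miR-7a-3p.

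The other 8 were spread over 8 libraries of 4 groups. In CA, library 1 of 2wEE_CA was at −1.68 for miR-125b-3p and library 6 at −2.995 for miR-129-3p. Library 5 of 2wHC_CA was at −0.057 for miR-26a-3p and library 4 at 0.101 for miR-7a-3p. In DG, miR-135a-3p was at −3.92 in library 8 of 10wEE_DG and at −6.22 in library 6 of 2wHC_DG. miR-181b-3p was at 6.57 in library 6 of 10wEE_DG, and miR-29b-5p at −3.93 in library 1 of 2wHC_DG.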

How the results depend on the processing

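No called difference changed its direction under any alternative run, while differences that had not passed and lay near 0 did, as given at the end. The count of 11 pairs called between DG and CA was 10 with limma at a prior count of 0.5, 11 at 2, 8 of 9 pairs at a minimum of 10 CPM, 12 with no minimum, and 10 to 12 when each library was left out in turn. The 2 calls between times in the home cage DG stayed at 2 in all of these. Between DG and CA, 114 of all ratios were called in the main run. The count was 110 and 118 with limma at 0.5 and 2, 86 at 10 CPM and 106 with no minimum. With no minimum, 1 pair was called between times in home cage CA and 1 in enriched CA, of 1 and 3 ratios called in all. In enriched DG, 1 pair was called with limma at either prior count, at a minimum of 10 CPM, with no minimum or with the replicate block, and 0 to 3 with a library left out. Over all ratios 9 were called there in the main run, and 12 to 20 under these settings other than leaving a library out. The difference of the home cage time effect between regions gave 1 pair at 10 CPM and 0 to 1 with a library left out. At 10 CPM 21 of all ratios were called in it, against 17 in the main run. The cause of these changes was not tested. For runs with a library left out, counts over all ratios and miRNAs are given only for library 3 of 10wEE_CA.

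Among single members, no minimum gave 1 call between times in enriched CA and 2 in enriched DG. Of all miRNAs 6 and 44 were called in these runs, against 15 and 52 in the main run. Leaving out 1 library gave 0 to 1 calls for enrichment in DG at 2 weeks, 2 to 7 between times in home cage DG, 0 to 6 in enriched DG, 0 to 3 for the home cage time effect between regions and 19 to 23 between regions. Of the single results called, 10 lost their call under at least 1 other setting and 12 with at least 1 library left out. In the regional contrast miR-125b-1-3p and miR-125b-2-3p lost theirs with DESeq2's size factors (adjusted p = 0.195 and 0.575), DESeq2 (0.182 and 0.417), a minimum of 10 CPM (0.105 and 0.173) and the replicate block (0.0725 and 0.0831), and when any of 22 and 19 libraries was left out.

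Replicate numbers were not shown to pair CA with DG libraries. Over 25 pairs of the same number the correlation of deviations was −0.36 to 0.467, above 0.1 in 9, and highest with the own number in 8. With the number as a block, 11 pairs were called between regions and 2 between times in home cage DG. Among single members these counts were 19 and 6. Over the whole tables they were 109 and 22 ratios, and 448 and 85 miRNAs. Pairs under a mean of 1 CPM, where 3 counts are 0.447 to 6.24 CPM, were tested only with no minimum.

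Regional differences that had not passed changed sign as follows. The ratio of miR-26a-3p was 0.072 in the enriched groups alone and that of miR-29b-5p 0.2 in the home cage groups alone. With DESeq2's size factors and with DESeq2, miR-128-2-5p was at 0.067 and 0.066 (0.043 at a minimum of 10 CPM), miR-29b-1-5p at 0.063 and 0.066, and miR-3074-1-3p at 0.033 and 0.032 (0.029 with the replicate block). With no minimum, miR-29b-2-5p was at −0.037 and miR-92a-1-5p at −0.009. Leaving out 1 library gave −0.092 to 0.024 for the miR-29b-5p ratio, −0.026 to 0.075 for miR-128-2-5p, −0.047 to 0.077 for miR-29b-1-5p, −0.09 to 0.052 for miR-3074-1-3p and −0.008 to 0.107 for miR-92a-1-5p.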
